A study of Drosophila melanogaster with 12 samples.

Results

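The genes described here encode the proteins of the cytoplasmic ribosome. They are the 86 gene identifiers of 17737 in the count tables whose FlyBase symbol begins with RpL, RpS or RpLP followed by a number, leaving out 5 symbols that end in -like. Of these, 50 belong to the large subunit and 36 to the small subunit. Most of the proteins come from 1 gene each (68 genes), 8 come from a main copy with a less used other copy elsewhere in the genome, and RpS14a and RpS14b are neighbouring copies. A further symbol of this form, RpS12, was not analysed here.

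A ribosome needs most of its proteins in equal numbers, and the genes for its proteins are among the most strongly expressed of any growing cell. In flies, losing 1 copy of many of these genes slows growth and shortens the bristles, the Minute phenotype, and cells with an unequal supply activate the transcription factor Xrp1. Most ribosomal protein mRNAs begin with a run of pyrimidines through which nutrient signalling by Tor controls their translation, and some of the other copies are known mainly from the gonads.

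Polyadenylated RNA was sequenced from 4 groups of 3 libraries. The S2 groups are a Drosophila cell line of hemocyte origin, labelled with no treatment or with double-stranded RNA (dsRNA) against Atx2, the fly homologue of the RNA-binding protein ataxin-2. The brain groups are whole brains of 3rd instar larvae, labelled with no treatment or with elav gal4>Atx2 shRNA, a short hairpin against Atx2 expressed under elav, a gene active in neurons, so other brain cells need not carry the knockdown. The labels name no control dsRNA and no driver or hairpin in the brain controls, so loss of Atx2 cannot be told apart from the presence of dsRNA or of the transgenes. Separate cultures or animals are not stated for the libraries of a group, and the error behind each p-value is therefore that between libraries, technical or biological.

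Libraries held 14944637 to 31579528 counts. Atx2 stood at 228.6 ± 12.5 CPM (SD; counts per 1000000 counts of a library) in control S2 cells and at 123.5 ± 59.7 CPM with dsRNA, where the libraries gave 148.9, 55.3 and 166.3 CPM (log2 fold change -0.89 ± 0.35 (SE), adjusted p = 0.0613, n = 3 each). In brains it fell from 192.8 ± 5.08 to 98.1 ± 5.86 CPM (log2 -0.97 ± 0.08, adjusted p = 0.0027, n = 3 each). The hemocyte markers fell in S2 cells in 8 of 8 tested, from a summed 10363 to 11496 CPM per control library to 3455 to 3919 CPM with dsRNA. The brain libraries held 2072 to 2620 CPM of 9 neuronal markers in controls and 2127 to 2364 CPM with the hairpin; 2 of the 9 fell and 1 rose, with elav at 552.0 ± 62.3 and 335.8 ± 7.64 CPM and fne at 533.2 ± 50.1 and 299.4 ± 23.2 CPM. These tests, and those below unless another is named, are edgeR quasi-likelihood tests over all genes with Benjamini-Hochberg adjustment. A gene is called where its adjusted p is under 0.05.

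The 86 genes took up a large part of every library, and that part moved in opposite directions in the 2 systems. In control S2 cells they held 21.6, 21.1 and 22.1% of a library's counts, against 15.7, 16.5 and 16.6% with Atx2 dsRNA. Control brains gave 14.9, 13.2 and 12.3%, and brains with the hairpin gave 16.4, 16.3 and 15.7%. The groups do not overlap within either system, and these shares need no scaling between libraries. Without RpS29, the gene that fell most, the shares were 20.8 to 21.8% in control S2 cells and 15.7 to 16.6% with dsRNA. The division between subunits hardly moved: the large subunit held 60.2 to 62.6% of the ribosomal protein counts in all 12 libraries.

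**Figure D1:**
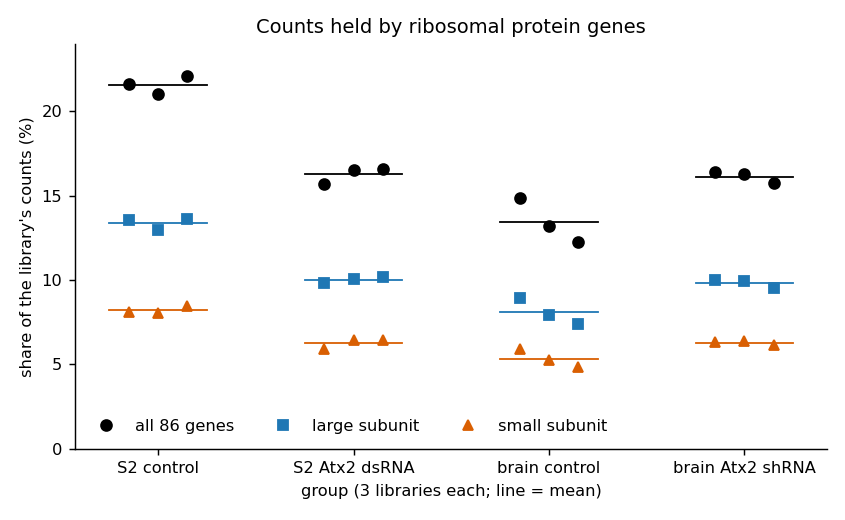
Share of each library's counts, in percent, held by all 86 ribosomal protein genes (circles), by the large subunit (squares) and by the small subunit (triangles), for 3 libraries in each of 4 groups with the group mean as a line. Control S2 cells lie between 21.1 and 22.1% and dsRNA-treated cells between 15.7 and 16.6%, while control brains lie between 12.3 and 14.9% and hairpin brains between 15.7 and 16.4%.

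In S2 cells with Atx2 dsRNA, nearly all ribosomal protein genes were lower. Of 84 genes tested, 76 fell, 4 rose and 4 did not pass the test, where 26.6% of all genes tested fell and 28.5% rose, 55% in all. The median log2 fold change of the 84 was -0.93, with the middle range from -1.08 to -0.63, against a median of 0.04 over all genes. Of the 4 that rose, RpL37-2 and RpS10a passed the filter on low counts only through the dsRNA libraries. In 78 of the 84 every dsRNA library lay below every control library, as it did for 30.5% of all genes tested (33.3% lay wholly above). At least a 2-fold fall was found for 29 of the 84, and for 1225 of all 9058 genes tested. Other strongly expressed genes leaned the same way with a wider spread. Of 216 other genes at a mean of 500 CPM or more, 66.2% fell and 6.94% rose. Their median was -0.74, with the middle range from -1.31 to -0.21. Of the 77 ribosomal protein genes at that level 74 fell, with a median of -0.93 and the middle range from -1.11 to -0.65. How far these genes fell depends on the scaling between libraries. The TMM factors used here were 0.84 to 0.86 in control libraries and 1.17 to 1.20 with dsRNA; with library totals alone the median over all genes shifted from 0.04 to 0.53, the median of the ribosomal protein genes was -0.44, and 54 of them fell and 6 rose. The hemocyte markers fell beside them, and their part in this result was not tested.

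**Figure D2:**
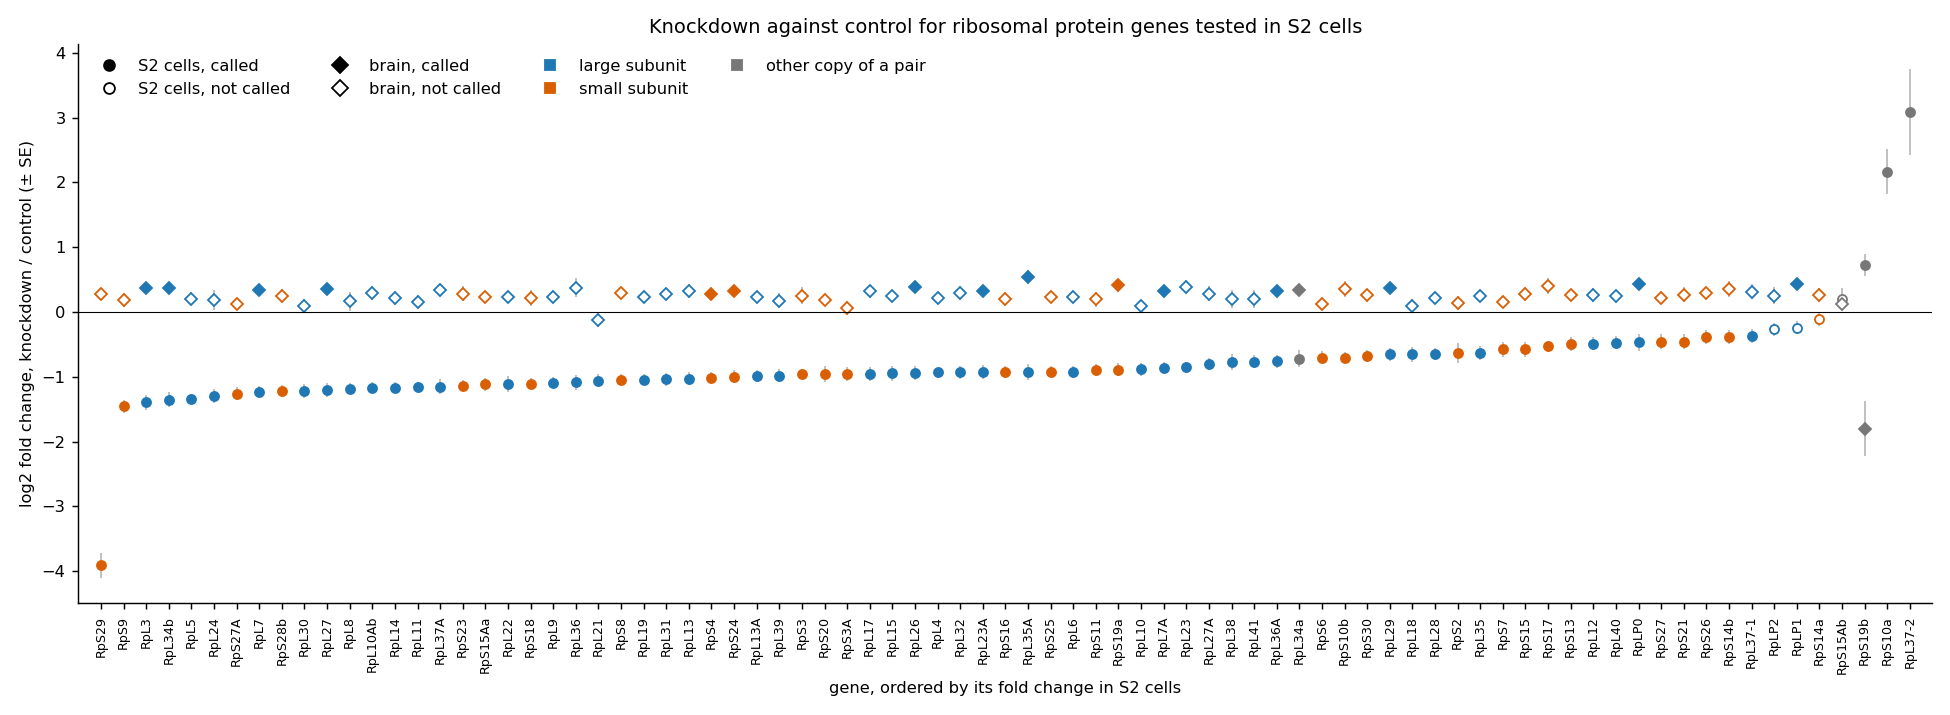
Log2 fold change of knockdown over control with its standard error for 81 of the 84 genes tested in S2 cells, ordered by the S2 value (circles) and with the brain value (diamonds) above or below it. Filled symbols are called at an adjusted p under 0.05; blue marks large-subunit genes, orange small-subunit genes and grey the other copies of pairs. The S2 circles run from -3.91 for RpS29 to 3.09 for RpL37-2 and the brain diamonds mostly lie between 0.07 and 0.54.

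RpS29 (FBgn0261599, chromosome 3R, 9778042 to 9779528 on the plus strand of BDGP6.54), a zinc-binding protein of the small-subunit head, fell far more than any other of these genes. Its level was 3531, 3317 and 3628 CPM in the control libraries and 175, 231 and 291 CPM with dsRNA (log2 -3.91 ± 0.19, adjusted p = 9.6e-06). Its share of the ribosomal protein counts went from 1.37 ± 0.0120% to 0.168 ± 0.0374% (n = 3 each). In brains the same gene stood at 2301, 2099 and 1848 CPM in controls and 2595, 2457 and 2529 CPM with the hairpin (log2 0.28 ± 0.09, adjusted p = 0.0703), within the range of the other genes. Its exons overlap those of the antisense gene asRNA:CR31514 by 10 bases, and that gene stood at 4.10 ± 0.426 CPM in control S2 cells and 9.11 ± 1.87 CPM with dsRNA.

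The next largest falls were of more than 1 log2 unit and did not overlap between groups. RpS9, a small-subunit protein at the mRNA entry channel, went from 1231, 1108 and 1249 CPM to 421, 429 and 457 CPM (log2 -1.46 ± 0.10). RpL3, which lies next to the peptidyl transferase centre, went from 6206, 4925 and 5806 CPM to 2334, 2002 and 2129 CPM (log2 -1.39 ± 0.12). Both genes overlap antisense genes, by 512 bases for RpS9 and 412 for RpL3, and the strand setting of the counting is not given in the sources used here. RpL34b, RpL5 and RpL24 followed at log2 -1.35 ± 0.11, -1.34 ± 0.08 and -1.30 ± 0.10. RpL5 carried the most counts of all these genes in S2 cells, 15685, 14742 and 15510.1 CPM in controls and 6335, 5836 and 5942 CPM with dsRNA. Together with RpL11, which fell from 3598 ± 215 to 1608 ± 30.8 CPM (log2 -1.16 ± 0.09), RpL5 binds the 5S rRNA before it joins the large subunit.

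The proteins of the stalk, the flexible arm that recruits elongation factors, were among the genes that changed least. RpLP0, its base, fell from 2394, 2825 and 2593 CPM to 1561, 1983 and 2109.8 CPM (log2 -0.47 ± 0.13, adjusted p = 0.0181). Without control library 2 or 3 its adjusted p was 0.0510 or 0.0506. The acidic tips did not pass the test: RpLP1 stood at 5399, 5024 and 5422 CPM in controls and 3924, 4643 and 4841 CPM with dsRNA (log2 -0.24 ± 0.10, adjusted p = 0.0785). RpLP2 gave 4294, 4594 and 4185 and 3270.0, 3924 and 3686 CPM (log2 -0.26 ± 0.10, adjusted p = 0.0502). In both, all 3 dsRNA libraries lay below the controls. Within the ribosomal protein counts, a measure free of the scaling, the share of RpLP1 went up from 2.06 ± 0.0180% to 3.24 ± 0.265% and that of RpLP2 from 1.71 ± 0.149% to 2.63 ± 0.201%. RpLP2 passed with RLE scaling (adjusted p = 0.0352), TMM factors computed without these genes (0.0442), DESeq2 (0.0293), a replicate block (0.0342) and the length trend removed (0.00747), and RpLP1 with the last (0.0130). With library totals alone the log2 fold changes of RpLP0, RpLP1 and RpLP2 were 0.019, 0.25 and 0.22.

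Genes with other known roles lay between these ends. The ubiquitin fusion genes, which encode ubiquitin joined to a ribosomal protein, differed from each other: RpS27A fell by 1.26 on the log2 scale, from 3628 ± 224 to 1513 ± 131 CPM, and RpL40 by 0.48, from 2765 ± 255 to 1989 ± 80.6 CPM. RpS6, the target of the growth-regulating kinase S6k, fell from 3871, 3293 and 3835 CPM to 2288, 2120.2 and 2336 CPM (log2 -0.71 ± 0.10). With library totals alone RpL40 was at 0.012 and RpS6 at -0.22, not past. RpS3, which like RpS9 lies at the mRNA entry channel, fell by log2 -0.96 ± 0.08 and RpL10, one of the last proteins to join the large subunit, by log2 -0.89 ± 0.10. RpL22, which has a testis-enriched relative named RpL22-like, fell by log2 -1.11 ± 0.12. RpL32, often used as the reference transcript of PCR assays in flies, fell from 2105, 1788 and 2079 CPM to 1088, 999.6 and 1046 CPM (log2 -0.93 ± 0.10, adjusted p = 0.000222), close to the median of the group.

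**Figure D3:**
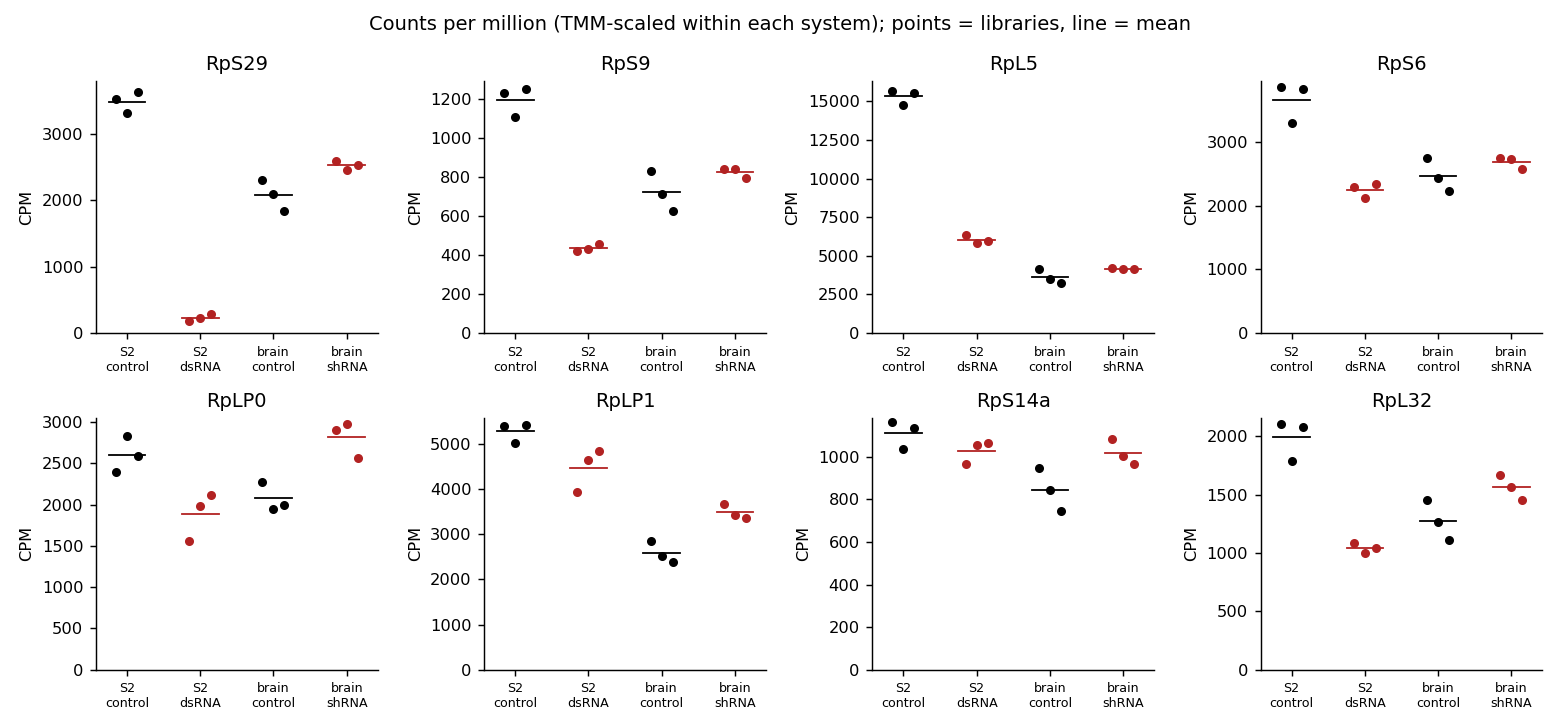
CPM in each library for 8 genes, with axes from 0 and the group mean as a line; black is control and red is knockdown, and CPM are TMM-scaled within each system. RpS29 drops to 175 to 291 CPM in dsRNA-treated S2 cells, RpLP1 at 3924 to 4841 CPM lies just below its controls and RpS14a overlaps them, and in brains the first control library is the highest of the controls for all 8 genes.

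The falls differed among genes by more than their errors. The middle range of the log2 fold changes spanned -1.08 to -0.63 while the median standard error was 0.10. Large-subunit genes had a median of -0.93, with 46 of 49 lower and 1 higher, and small-subunit genes a median of -0.89, with 30 of 35 lower and 3 higher. Without the other copies the subunits were at -0.94 and -0.92, and without RpS29 the small subunit was at -0.80. The 27 genes that carry a snoRNA gene inside them had a median of -0.96, and all 27 fell, against -0.77 for the 57 tested genes without one, of which 49 fell. Medians by chromosome arm ran from -1.03 on 2L to -0.86 on 2R among the arms with more than 1 gene. Exon length was weakly related to the change across the 78 genes other than the other copies (r -0.14, as a description over genes that share the same libraries).

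In brains with the Atx2 hairpin, the ribosomal protein genes were slightly higher. Of 82 genes tested, 79 had a log2 fold change above 0, 17 rose, 2 fell and 63 did not pass, where 11.5% of all genes tested rose and 11.5% fell, 23% in all. The median was 0.25, with the middle range from 0.20 to 0.33, against a median of 0.01 over all genes and of -0.24 over the 203 other genes at 500 CPM or more. The 3376 other genes under 1500 exon bases had a median of 0.12, and with the trend on exon length removed the median of the ribosomal protein genes was 0.16, with 13 higher. In 51 of the 82 every hairpin library lay above every control library, as it did for 22% of all genes tested. The middle range is about as wide as the median standard error of 0.10, so the genes other than the other copies cannot be ranked among themselves by these values. Large-subunit genes had a median of 0.27 with 14 higher of 48, and small-subunit genes 0.25 with 3 higher and 2 lower of 34.

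The brain controls were not alike in these genes. The first control library gave the highest of the 3 control values for 81 of the 82 genes and the third gave the lowest for 80. All hairpin libraries lay above the second control in 79 of the 82 genes and above the third in 79, but above the first in 51. The number of genes called higher moved with single libraries: it was 28 without control 1, 0 without control 2, 4 without control 3, 3 without hairpin library 1, 1 without hairpin library 2 and 24 without hairpin library 3. Without control 2, 33 genes were still higher at an unadjusted p under 0.05, against 52 with all libraries. The median stayed between 0.18 and 0.35 in all of these. DESeq2 called 45 higher. In whole brains, fewer cells of a type and less RNA per cell cannot be told apart. Glial markers rose in 6 of 7 tested, from a summed 945.0 to 1278 CPM per control library to 1654 to 2478 CPM with the hairpin. Hemocyte markers rose in 5 of 10, from 517.8 to 759.5 CPM to 1304 to 1975 CPM. Fat body markers rose in 1 of 8, with summed ranges of 385.0 to 846.9 and 792.6 to 4015 CPM. Muscle markers rose in 0 of 9 tested, with summed ranges of 143.7 to 388.3 and 363.0 to 1264 CPM. No marker of these lists was at 0 in either brain group. One control library held 2177 CPM of salivary gland markers and 1 hairpin library held 2294 CPM of gut markers; without both libraries 1 gene was called higher and the median was 0.15. Whether any of these has a part in the brain result was not tested.

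Of the 17 genes called higher in brains, 14 encode large-subunit proteins, which were 48 of the 82 genes tested. The medians of the subunits were alike, at 0.27 and 0.25. RpL35A, RpLP0, RpLP1, RpS19a and RpL26 each lost their call without control 2 and without hairpin library 2 (adjusted p 0.0607 to 0.0925). RpL35A stood at 826, 682 and 786 CPM in controls and 1178, 1162 and 999 CPM with the hairpin (log2 0.54 ± 0.10, adjusted p = 0.0159). The groups do not overlap. Of the stalk genes, RpLP0 rose from 2277, 1951 and 1997 CPM to 2897, 2980.3 and 2559 CPM (log2 0.44 ± 0.09, adjusted p = 0.0209) and RpLP1 rose from 2838, 2525 and 2375 CPM to 3672, 3419.9 and 3353 CPM (log2 0.43 ± 0.09, adjusted p = 0.0181). RpLP2 was at log2 0.25 ± 0.13, the median of all these genes, and did not pass. RpS19a, a small-subunit protein whose human counterpart is mutated in Diamond-Blackfan anaemia, rose by log2 0.41 ± 0.09 and RpL26 by 0.39 ± 0.09. Also called higher were RpS4, RpL7A, RpL36A, RpS24, RpL23A, RpL7, RpL34a, RpL27, RpL3, RpL34b and RpL29, at log2 values from 0.28 to 0.38.

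Several genes of known role did not pass in brains. RpL5 stood at 4119.6, 3470.5 and 3219 CPM in controls and 4201, 4142 and 4124 CPM with the hairpin (log2 0.21 ± 0.10), and RpL11 was at log2 0.16 ± 0.11. RpS6 gave log2 0.12 ± 0.09, RpS3 0.25 ± 0.13, RpL10 0.10 ± 0.09, RpL22 0.23 ± 0.09, RpS27A 0.12 ± 0.09 and RpL40 0.24 ± 0.10. RpL32 gave 1452, 1266 and 1116 CPM in controls and 1673, 1569 and 1458 CPM (log2 0.29 ± 0.11, adjusted p = 0.0992). RpL21 was the 1 gene of the main set with a value below 0, at log2 -0.12 ± 0.11.

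The difference between the systems was tested itself, as the brain effect minus the S2 effect in 1 model of all 12 libraries. Of 84 genes tested, 78 had a larger brain than S2 effect and 2 a smaller one, where 19.7% and 21.4% of all genes tested were called in these directions, 41.1% in all. The median difference was 1.16 on the log2 scale, against -0.10 over all genes. RpS29 differed most (4.20 ± 0.22, adjusted p = 5.7e-07), followed by RpL3 (1.77 ± 0.17), RpL34b (1.73 ± 0.16), RpS9 (1.65 ± 0.15) and RpL7 (1.58 ± 0.14). RpLP1 (0.68 ± 0.15) and RpLP2 (0.52 ± 0.18, adjusted p = 0.0372) differed least among those called. RpLP2 lost its call without any 1 of 8 libraries (log2 0.44 to 0.53) and with library totals alone (0.043). It also lost it with upper quartile scaling (0.37), with counts thinned to equal totals (0.47) and without the 2 libraries holding salivary gland or gut markers (0.40). Called in both systems in opposite directions were 16 genes that fell in S2 cells and rose in brains, where 3.96% of the 8452 genes tested in both did so, and 2 that did the reverse (3.22% of all), 1 of them RpS19b, which passed the filter in brains only through the control libraries. The brain calls behind these opposite directions depend on libraries and settings. Without control 2, or with a replicate block, 0 of the 82 genes were called higher or lower in brains. The systems also differ in tissue, in the way Atx2 was lowered and in the share of cells reached, which cannot be told apart here.

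The less used copies of the pairs did not all follow their main copies in S2 cells. All 8 main copies fell, with a median of -1.02. Of the other copies RpL34a fell, RpS15Ab did not pass and RpS19b rose. RpS19b (FBgn0039129, chromosome 3R, 23932729 to 23933530, minus strand), a copy of RpS19a known from the ovary, rose from 8.53, 11.5 and 9.54 CPM to 17.9, 16.2 and 14.7 CPM (log2 0.72 ± 0.17, adjusted p = 0.00869). The groups do not overlap. In brains it stood at 1.67, 1.59 and 0.826 CPM in controls and 0.307, 0.330 and 0.525 CPM with the hairpin (log2 -1.80 ± 0.43), again without overlap. There it reached the minimum count of the filter in 3 control libraries and 1 hairpin library, so it was tested only through the group where it is high and the brain value is a description.

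The remaining copies were at lower levels or moved little. RpS10a went from 0.536, 0.515 and 0.459 CPM to 3.13, 1.96 and 1.71 CPM in S2 cells (log2 2.16 ± 0.35), from 35 to 151 counts over 3 libraries. RpL37-2 went from 0.289, 0 and 0.275 CPM to 1.33, 1.92 and 1.65 CPM (log2 3.09 ± 0.66), from 13 to 106 counts. Both passed the filter on low counts only through the dsRNA libraries, where they are high, so these values are a description and no support for a direction of the copies. In brains these genes had at most 22 counts per group and were not tested. RpS28a had 10 counts in all groups together and RpL10Aa had 0 of 310106804 counts, which allows up to 0.00967 CPM. Such low values can include reads of the main copy of a pair, and the sequences of the copies were not compared here. RpL37-2 had 0 to 3 counts per brain library, beside 43869 to 59408 of RpL37-1. In dsRNA-treated S2 cells it had 29 to 45 counts per library, beside 35276 to 53216. The part of main-copy reads in these values was not tested. With a filter of 5 CPM in 3 libraries only RpS19b remained among the 4 that rose in S2 cells, with the other 3 untested. Germ line markers, a list that also holds the muscle actin Act87E, summed to 57.7 to 83.7 CPM in control S2 libraries and 64.1 to 67.8 CPM with dsRNA; 2 of 4 tested rose, 1 fell, and their part was not tested.

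RpL34a and RpS15Ab are copies expressed at higher levels. RpL34a (FBgn0039406, chromosome 3R, 26058420 to 26059267, minus strand) fell in S2 cells from 341, 392 and 376 CPM to 193, 232 and 249 CPM (log2 -0.72 ± 0.13), less than its main copy RpL34b at -1.35, and rose in brains from 251, 226 and 217 CPM to 283, 306 and 292 CPM (log2 0.34 ± 0.08), close to RpL34b at 0.37. RpS15Ab stood at 40.2, 62.3 and 54.6 CPM in control S2 cells and 50.6, 69.1 and 59.97 CPM with dsRNA (log2 0.19 ± 0.18, not past), while its main copy RpS15Aa fell by 1.11. The neighbours RpS14a and RpS14b, on chromosome X from 7933742 to 7935792, differed little: RpS14a was at log2 -0.11 ± 0.10 in S2 cells and did not pass, and RpS14b at -0.38 ± 0.11 (adjusted p = 0.0154). With library totals alone RpL34a was at -0.23 (adjusted p = 0.143), RpS15Ab was higher at 0.68 (0.0133), RpS14a was at 0.38 and RpS14b at 0.10, and RpS14b lost its call without control 3 (adjusted p 0.0669) or dsRNA library 2 (0.0507). RpL37-1, the main copy of its pair, fell by log2 -0.37 ± 0.11 (adjusted p = 0.0204) and lost its call without control 1, control 3, dsRNA library 2 or dsRNA library 3 (adjusted p 0.0554 to 0.0750).

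The share of a pair held by the other copy compares 2 genes within each library and so needs no scaling. In S2 cells RpL34a held 13.8, 18.04 and 16.7% of the RpL34 counts in controls and 20.03, 25.00 and 23.8% with dsRNA. RpS15Ab went from 1.70, 2.58 and 2.08% to 4.08, 6.13 and 5.18%. RpS19b went from 0.332, 0.529 and 0.421% to 1.41, 1.32 and 1.11%. In all 7 pairs tested in S2 cells, RpS14a of its pair included, the share was higher in every dsRNA library than in every control. Among these 7 are RpL37-2 and RpS10a, which passed the filter only through the dsRNA libraries, so their shares are a description. Shares of this kind were not computed for other genes, so these counts have no background beside them. In brains the mean share was lower with the hairpin in 5 of 6 pairs, and the groups did not overlap in 3 of these. RpS19b is among these 3 and was tested in brains only through the control libraries, where it is high. RpS15Ab held 4.96, 5.14 and 5.65% of the RpS15A counts in control brains and 4.92, 4.82 and 4.89% with the hairpin. RpS19b held 0.125, 0.140 and 0.0726% of the RpS19 counts in control brains and 0.0182, 0.0200 and 0.0357% with the hairpin. RpL34a overlapped between the groups, at 23.2, 21.6 and 22.2% and 19.96, 22.6 and 23.8%. An exact two-sided permutation test of 3 libraries against 3 cannot go below p = 0.1, and 10 of the 13 tests reached it (adjusted p = 0.13). These 10 include RpL37-2 and RpS10a in S2 cells and RpS19b in brains.

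**Figure D4:**
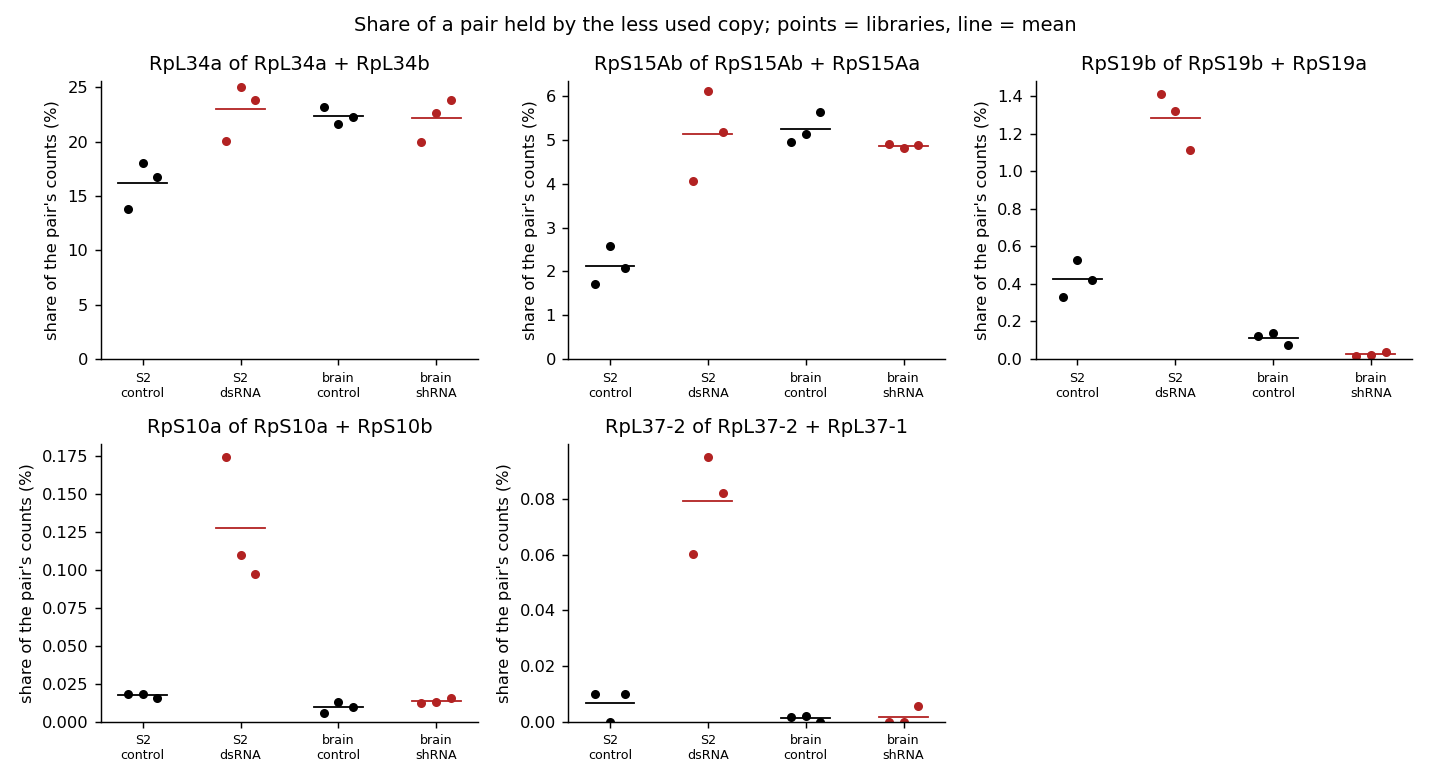
Percent of a pair's counts that came from the less used copy, for 5 pairs, in each library (points) with the group mean (line); every axis starts at 0 and has its own range. In dsRNA-treated S2 cells all 3 points lie above the controls in each panel, while in brains RpS15Ab and RpS19b lie below their controls and RpL34a overlaps.

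The levels of the genes relative to each other were much the same in the 2 control groups. Per kilobase of annotated exon and with all 12 libraries scaled together, the median over the 78 genes other than the other copies was 3682 CPM per kilobase in control S2 cells and 1765 in control brains, and it was 1865 with dsRNA and 2104 with the hairpin. RpL41, the smallest protein of the ribosome, was highest in both, at 13445 ± 838.4 CPM per kilobase in control S2 cells and 9229 ± 1834 in control brains (SD, n = 3). RpLP2, RpLP1, RpS27A and RpL27A came next in S2 cells, at 7535 ± 355.2, 7188 ± 451.0, 6395 ± 219.7 and 6296 ± 438.9. RpS27A, RpL39, RpLP2 and RpLP1 came next in brains, at 3790.4 ± 435.1, 3545 ± 522.6, 3284 ± 596.2 and 3186 ± 304.5. Below RpL41, neighbours among these genes differed by less than the sum of their SDs, except RpLP1 and RpS27A in S2 cells. At the lower end stood RpL22 (989.9 ± 112.1 in S2 cells and 609.1 ± 39.7 in brains) and RpS14b (616.2 ± 51.2 and 237.6 ± 30.6). Of the other copies, RpL34a (620.6 ± 27.0 and 353.3 ± 28.6) was level with RpS14b in S2 cells and above it in brains. The rest were lower: RpS15Ab (75.3 ± 14.2 and 87.8 ± 4.34), RpS19b (15.4 ± 1.98 and 1.95 ± 0.675), RpS10a (0.871 ± 0.0885 and 0.223 ± 0.0714) and RpL37-2 (0.470 ± 0.408 and 0.0496 ± 0.0431). Across the 78 genes the log2 levels in the 2 control groups had r = 0.91, a description over genes that share exon lengths and libraries.

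Between the control groups, 82 of 84 genes were lower in brains than in S2 cells, where 35.9% of all genes tested were lower and 40.6% higher, 76.4% in all. In 81 of the 84 every control brain library lay below every control S2 library, as it did for 38.8% of all genes tested, while 42.5% lay wholly above. The median was -1.01 against 0.11 over all genes. RpL5 differed most among the strongly expressed genes, with 16947, 15107 and 15959.8 CPM in control S2 cells and 3918, 3303 and 3034 CPM in control brains (log2 -2.23 ± 0.12), and RpL28 came next at -1.81 ± 0.09. RpL18 differed least of the single genes, at log2 -0.35 ± 0.10. In brains 1 gene was higher, and RpS15Ab did not pass (0.22 ± 0.14). RpS19b was lower, from 9.22, 11.7 and 9.82 CPM to 1.59, 1.52 and 0.779 CPM (log2 -2.98 ± 0.30). Tissue, culture and preparation cannot be told apart in this comparison.

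**Figure D5:**
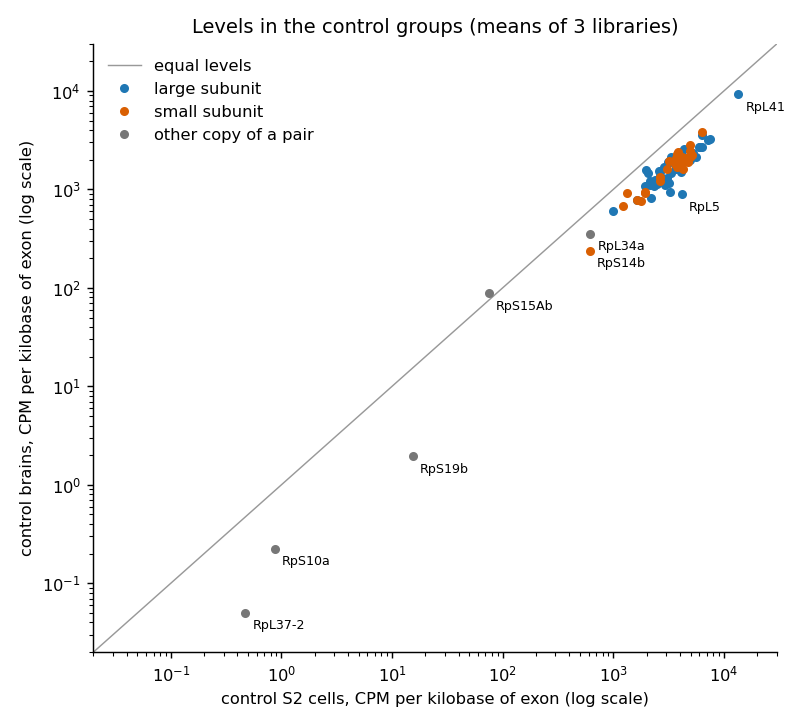
Mean level of the genes in control brains against control S2 cells, in CPM per kilobase of exon on log scales, with the line of equal levels; blue is the large subunit, orange the small subunit and grey the other copies. Nearly all points lie below the line, and RpL41 is highest in both.

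Genes that work with the ribosome moved in part with it. Other ribosome-bound proteins fell in S2 cells: Rack1, a scaffold on the small subunit, from 4489 ± 238 to 1484 ± 163 CPM (log2 -1.60 ± 0.11), and sta, which encodes a protein of the small subunit under another name, from 5117 ± 109.7 to 2492 ± 261 CPM (log2 -1.04 ± 0.10). eIF6 and Nmd3, which bind the large subunit as it matures, rose, from 83.5 ± 8.19 to 243 ± 43.9 CPM (log2 1.54 ± 0.16) and from 50.6 ± 8.17 to 101 ± 7.58 CPM (1.00 ± 0.14). In brains the 4 did not pass, at log2 0.09 ± 0.09 for Rack1, 0.18 ± 0.09 for sta, 0.32 ± 0.10 for eIF6 and 0.18 ± 0.13 for Nmd3. The lists that follow are read against all genes tested, of which 28.5% rose and 26.6% fell in S2 cells and 11.5% rose and 11.5% fell in brains. Of 8 elongation factors, 5 fell and 1 rose in S2 cells, with a median of -0.64, and 3 rose in brains, with a median of 0.14. The main one, eEF1alpha1, which brings aminoacyl-tRNA to the ribosome, fell from 25518 ± 312 to 8753 ± 411 CPM in S2 cells (log2 -1.54 ± 0.07) and rose from 12789 ± 731 to 16185 ± 99.9 CPM in brains (log2 0.34 ± 0.07). Of 36 initiation factors tested in S2 cells 20 fell and 4 rose, with a median of -0.56, and of 35 in brains 2 fell (median 0.04). Mitochondrial ribosomal proteins, which belong to another ribosome, fell in 14 (19.7%) and rose in 2 of 71 in S2 cells (median -0.16), and rose in 13 of 71 in brains (median 0.31).

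In the machinery that builds ribosomes, 9 of 34 assembly factors rose and 6 fell in S2 cells (26.5% and 17.6%, against 28.5% and 26.6% of all genes tested), with a median of 0.24; RIOK1, a kinase of small-subunit maturation, rose by log2 1.27 ± 0.12 and bys by 0.82 ± 0.12, while the GTPase Non1 fell by log2 -1.49 ± 0.19 and CG4364 by -1.44 ± 0.10. In brains 1 of the 34 passed, Non1, at log2 0.49 ± 0.12. Of 9 genes for RNA polymerase I and its factors 5 rose in S2 cells, against 28.5% of all genes, Polr1H by log2 1.00 ± 0.24 and Polr1D by 0.88 ± 0.23 among them, and 2 fell in brains. Of 21 genes known to regulate ribosomal protein genes or their mRNAs, 10 fell and 2 rose in S2 cells (47.6% and 9.52%), with a median of -0.54. The largest falls were of larp, which binds pyrimidine-run mRNAs, from 1391 ± 274 to 199.9 ± 48.1 CPM (log2 -2.80 ± 0.22), of the GAGA factor Trl (-2.11 ± 0.15), of the translation inhibitor Thor (-2.07 ± 0.49) and of REPTOR, a factor restrained by Tor (-1.67 ± 0.25). In brains 4 of the 21 fell and 1 rose; Mnt was at log2 -0.65 ± 0.07, Dref at -0.50 ± 0.08 and REPTOR, the 1 that rose, at 0.90 ± 0.11. Of the genes that answer an unequal supply of ribosomal proteins, 3 of 7 rose in S2 cells (against 28.5% of all genes tested) and 2 of 9 in brains (against 11.5%). Xrp1 rose in both, from 1044 ± 171 to 1766 ± 67.5 CPM in S2 cells (log2 0.76 ± 0.13) and from 458 ± 24.7 to 669 ± 77.9 CPM in brains (0.55 ± 0.10); its partner Irbp18 rose in S2 cells (0.87 ± 0.17) and GstE1 in brains (1.26 ± 0.19). Of 5 copies named -like, RpL24-like, an assembly factor of the large subunit, fell in S2 cells (-1.21 ± 0.11) and rose in brains (0.41 ± 0.11). RpL22-like went from 0.193 ± 0.153 to 0.925 ± 0.435 CPM in S2 cells (2.23 ± 0.61). It passed the filter on low counts only through the dsRNA libraries, where it is high, so this value is a description.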

How the data were processed

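Counts per gene were deposited by the authors as whole numbers, 1 table for each of 12 libraries, and were used as deposited. The submitters' processing notes name cutadapt 1.13, STAR, HTSeq 0.6.1p1, DESeq2 and the build BDGP6. Strand setting, annotation release and filters: not given in the sources used here. Identifiers were matched to symbols, exon lengths and overlaps in the BDGP6.54 annotation (17599 of 17737 matched). No sequences are shown. Results of 3 genes are not reported here by name.

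Genes were tested with edgeR 4.0.16 in R 4.3.3 (filterByExpr with a minimum count of 10, TMM factors, quasi-likelihood F test) over all genes of a comparison, with Benjamini-Hochberg adjustment and a threshold of 0.05: 9058 genes in S2 cells, 10438 in brains and 11176 in the fits of 12 libraries. CPM use the TMM factors of the same fit. Of the 86 genes 84 passed the filter in S2 cells and 82 in brains. The tests were tried on simulated data first, where they recovered 94% of changes of 1 log2 unit in S2 cells and 87% in brains. The simulated spread was equal for all genes and smaller than the common spread estimated in either system. The simulation changed 100 genes by 1 log2 unit and 100 by 2, with as many up as down. It therefore does not show how reliable the calls are in S2 cells or in brains. Alternatives were other scalings, filters, DESeq2 1.42.0, a replicate block, an exon length correction, thinning and leaving out libraries.

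The genes and the lists around them were chosen with earlier results of these data known. Genes named are, by rule, the 6 largest changes each way in each system, all copies of pairs, the 5 highest and lowest levels, genes of known role, the 5 largest differences each way between systems, genes called in opposite directions, and up to 4 per list.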

Additional observations from a re-analysis of the deposited data

Results flagged for a closer look

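The test of the difference between the knockdown effects (brain log2 fold change minus S2 log2 fold change, edgeR over 12 libraries) was passed by 80 of the 84 genes. The results given here are genes called in opposite directions in the 2 systems and the 5 largest differences in the positive direction. The low-level copy RpS19b rose in S2 cells and was lower in brains, with a difference of -2.52, but passed the filter on low counts in the brain fit only through the control libraries. Most of the other genes fell in S2 cells and rose in brains. Their differences were 0.91 for RpLP0, 1.04 for RpL29, 1.07 for RpL34a, 1.10 for RpL36A, 1.19 for RpL7A, 1.26 for RpL23A and 1.31 for RpS4. They were 1.31 for RpS19a, 1.33 for RpS24, 1.34 for RpL26, 1.48 for RpL35A, 1.57 for RpL27, 1.58 for RpL7, 1.73 for RpL34b and 1.77 for RpL3. RpS9, at 1.65, and RpS29, at 4.20, are among the largest differences although neither passed in brains. The opposite directions rest on brain calls that depend on libraries and settings. Without brain control 2, or with a replicate block, 0 of the 82 genes tested were called in brains. Controls and knockdowns differ between the systems in tissue and method, which cannot be told apart.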

How the results depend on the processing

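In S2 cells 69 to 78 genes fell under every alternative but library totals alone, which gave 54, and leaving out 1 library gave 72 to 76. The strict filter left 1 of 4 genes higher. The S2 median was -0.74 with upper quartile scaling, -0.44 with library totals alone, -0.97 with no filter, -0.86 with the strict filter, -1.02 with the length trend removed and -0.98 to -0.91 with 1 library left out. The gap between subunit medians, -0.04, was -0.14 with no filter and -0.14 without RpS29, an exclusion chosen after seeing the data.

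Brain calls depended on single libraries and settings: 17 genes were higher, against 30 with library totals alone, 26 with TMM factors computed without these genes, 45 with DESeq2, 0 to 28 with 1 library left out and 1 without the 2 libraries holding salivary gland or gut markers. Those lower were 2, against 1 with the strict filter, 1 without those 2 libraries and 0 to 2 with 1 left out. The brain median was 0.16 with the length trend removed, 0.15 without those 2 libraries and 0.18 to 0.35 with 1 left out. The cause was not tested, other than that leaving out libraries leaves fewer samples.

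Replicate numbers were not used to pair the libraries in the main fits. In S2 cells deviations of equally numbered libraries had correlations of 0.45, 0.40 and 0.04, against -0.45 to 0.31 for differently numbered ones. In brains the values were 0.02, 0.21 and -0.38, against -0.37 to 0.36. Whether the numbers pair the S2 libraries is not settled by these values. With a replicate block 0 brain genes were higher and 0 lower (53 and 2 at an unadjusted p under 0.05), where the block left 14 of all genes higher and 26 lower; in S2 cells it gave 77 lower and 4 higher.

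Library totals alone reversed RpL37-1 (0.12), RpL40 (0.012), RpLP0 (0.019), RpLP1 (0.25), RpLP2 (0.22), RpS14a (0.38) and RpS14b (0.10) in S2 cells, and RpS14a in the difference between systems (-0.10). Upper quartile scaling put RpS14a at 0.074 in S2 cells. The length correction put RpS15Ab at -0.022 and RpS27A at -0.044 in brains. The difference for RpS15Ab ran from -0.20 to 0.073 with 1 library left out. The brain share of RpL34a (-0.219 percentage points) ran from -1.06 to 0.871 with 1 library left out. Between control groups, 2 genes were higher in brains with library totals alone, with DESeq2 and with the length correction, and 1 to 2 with 1 library left out. With library totals alone, all S2 genes split into 4906 higher and 1324 lower, and with upper quartile scaling into 3406 and 1870, against 2580 and 2406. Upper quartile scaling moved the median of all S2 genes from 0.04 to 0.22. Depth limits RpL37-2, RpS10a, RpS28a and RpL10Aa in brains, at 22 counts or fewer per group.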
